A study of Mus musculus with 8 samples.

Results

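The genes of sterol and fatty acid synthesis that are known targets of the sterol regulatory element binding proteins (SREBPs), with the regulators of those proteins, were examined in mouse peritoneal macrophages. They were picked by symbol, 24 in the sterol branch and 9 in the fatty acid branch, from a list drawn up with earlier results of these data known. All 33 were found among the 55801 genes of the expression table, each in 1 row, and all 33 passed the filter on low values, Elovl6 only through the samples with C498. The macrophages came from male C57BL/6 mice given thioglycollate into the peritoneum, an irritant that draws monocytes into the cavity where they become macrophages. The 4 groups held 2 samples each. NC samples received the DMSO vehicle and LPS samples received lipopolysaccharide, the bacterial cell wall component sensed by TLR4, at 100 ng/ml for 4 h. C498 samples received the compound C498 at 15 µM, and C498+LPS samples received C498 at 15 µM for 0.5 h and then LPS at 100 ng/ml for 4 h. The study found C498 in a screen for inhibitors of JAK/STAT and NFκB signaling and used RNA sequencing to ask how it changes the response to LPS. The labels do not say whether the samples of a group came from separate mice or cultures, so the p-values measure only the spread between these samples, which may be technical.

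SREBPs are transcription factors made as precursors in the membrane of the endoplasmic reticulum. When sterols in that membrane are low, the escort protein SCAP carries them to the Golgi, where proteases free the active part, which enters the nucleus. When sterols are high, the INSIG proteins hold SCAP back. SREBP-2, from Srebf2, acts mainly on cholesterol synthesis, and SREBP-1, from Srebf1, acts mainly on the synthesis and desaturation of fatty acids. Oxysterols, such as the 25-hydroxycholesterol that macrophages make, block the first step, and liver X receptors (LXRs) raise Srebf1 and genes of sterol export.

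Promoters of 6 members are shown because these genes either changed with LPS or C498 or hold the classical motif. They are 150 bases before the annotated start of transcription, before the farthest 5′ of 3 starts for Dhcr7, 5′ to 3′ on the strand of the gene, from RefSeq on GRCm38.p6. The windows are chr13:119690201-119690350 (plus strand) for Hmgcs1, chr5:28071213-28071362 (plus) for Insig1, chrX:8193513-8193662 (minus) for Ebp, chr7:143822995-143823144 (plus) for Dhcr7, chr11:120824548-120824697 (minus) for Fasn and chr3:129532205-129532354 (plus) for Elovl6. Capitals mark matches on either strand to TCACNCCAC, the core of a sterol regulatory element, to CCAAT, the box bound by NF-Y, and to GGGCGG, the box bound by Sp1.
Hmgcs1: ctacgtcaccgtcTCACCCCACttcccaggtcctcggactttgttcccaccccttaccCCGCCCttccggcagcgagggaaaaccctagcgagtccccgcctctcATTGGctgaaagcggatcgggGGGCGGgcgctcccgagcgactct
Insig1: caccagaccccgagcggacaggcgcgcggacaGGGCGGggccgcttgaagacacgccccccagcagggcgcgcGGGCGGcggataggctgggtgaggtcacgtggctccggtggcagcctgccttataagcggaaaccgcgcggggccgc
Ebp: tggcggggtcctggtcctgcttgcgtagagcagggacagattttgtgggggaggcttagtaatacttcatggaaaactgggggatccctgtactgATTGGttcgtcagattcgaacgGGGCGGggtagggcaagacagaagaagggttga
Dhcr7: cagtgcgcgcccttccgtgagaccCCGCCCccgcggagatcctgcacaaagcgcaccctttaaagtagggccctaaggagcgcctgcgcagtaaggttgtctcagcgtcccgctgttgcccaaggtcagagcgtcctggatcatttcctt
Fasn: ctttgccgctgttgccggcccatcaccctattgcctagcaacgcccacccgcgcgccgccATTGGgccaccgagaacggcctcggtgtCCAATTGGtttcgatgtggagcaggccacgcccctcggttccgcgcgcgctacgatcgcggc
Elovl6: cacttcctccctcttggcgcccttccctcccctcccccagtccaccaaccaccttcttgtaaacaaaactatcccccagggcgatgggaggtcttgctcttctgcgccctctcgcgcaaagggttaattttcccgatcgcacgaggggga
Promoters were available for 26 members, 20 of the sterol branch and 6 of the fatty acid branch, and motifs were searched on both strands over the 250 bases before each start. A match to TCACNCCAC was found at 1 of the 20 sterol genes, Hmgcs1, and at 0 of the 6 fatty acid genes, against 1.225% of all 27025 genes with a promoter. CCAAT was found at 18 of 20 sterol genes (90.0%) and at 2 of 6 fatty acid genes (33.3%), Fasn and Elovl5, against 37.495% of all genes. GGGCGG was found at 19 of 20 sterol genes (95%) and at 2 of 6 fatty acid genes, Acly and Fads2, against 35.356% of all genes. In the Fasn promoter a CCAAT on each strand overlaps in the run CCAATTGG, and the printed stretch of Elovl6 holds no match. Some genes have several starts and were counted when any window held the motif. Dhcr7 counts for CCAAT through another of its starts, and Insig1 through bases farther 5′, so neither printed stretch holds it.

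Expression was available as TPM, a transcript level scaled for gene length and for the total of the sample, so that levels can be compared between genes. The read depth of the samples cannot be recovered from TPM. Between 17528 and 18975 genes were above 0 in a sample, and the r of log2 levels between the samples of a group was lowest in NC (0.962) and highest in LPS (0.981). NC replicate 1 was higher than NC replicate 2 for 27 of the 33 members and for all 9 fatty acid genes, and the median tested gene lay at 4.03 in NC replicate 1 and at 3.71 in NC replicate 2 on the log2(TPM + 1) scale. All 8 macrophage markers examined were detected in every sample, with Lyz2 at 7831 to 15989 TPM. Because the samples are bulk RNA, fewer cells of a type and less RNA per cell cannot be told apart.

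The members were expressed at moderate levels. The mean over the 8 samples ran from 5.29 TPM for Hsd17b7 to 112 TPM for Fdps in the sterol branch, and from 2.19 TPM for Elovl6 to 69.4 TPM for Acly in the fatty acid branch. Summed over its 24 genes, the sterol branch lay at 659 to 783 TPM in NC, 697 to 713 TPM in LPS, 879 to 882 TPM in C498 and 782 to 785 TPM in C498+LPS. The 9 fatty acid genes summed to 146 to 198 TPM in NC, 112 to 124 TPM in LPS, 262 to 270 TPM in C498 and 211 to 218 TPM in C498+LPS. Both sums were highest in C498, and the fatty acid sum of the LPS samples lay below that of every other sample.

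**Figure D1:**
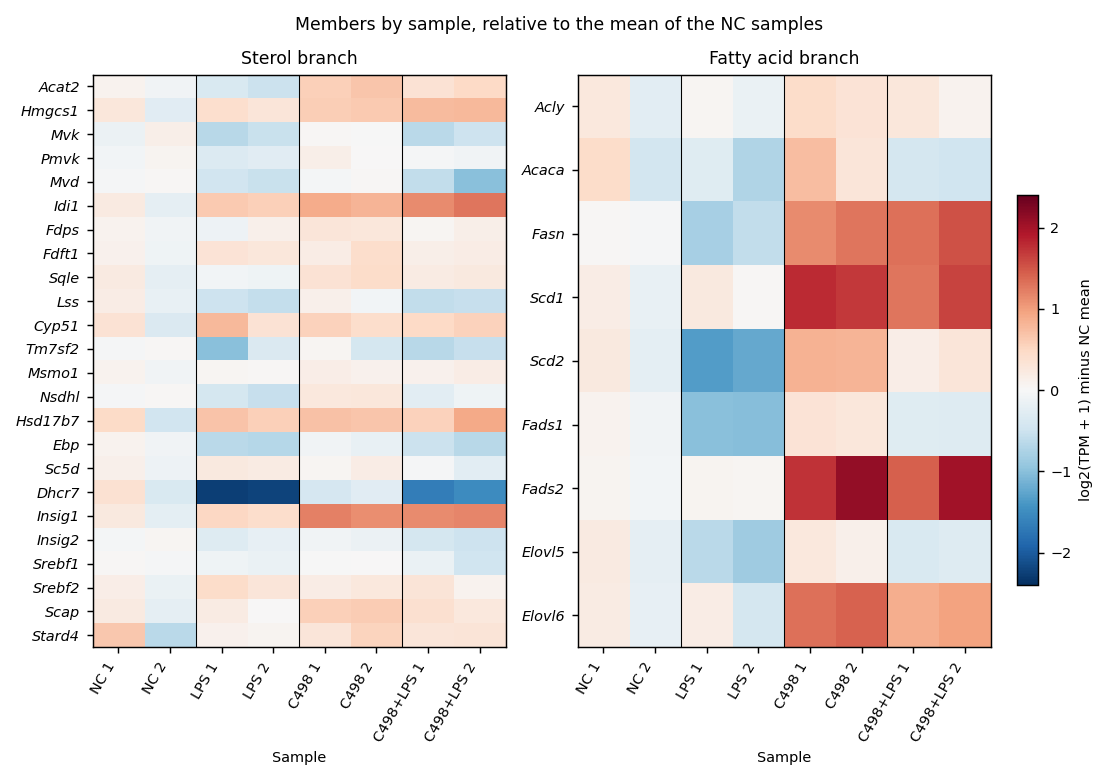
Each row is a gene, each column a sample, and the color gives log2(TPM + 1) minus the mean of the 2 NC samples, red for higher and blue for lower. Fasn, Scd1, Fads2, Elovl6 and Insig1 are red in all 4 samples with C498, and Dhcr7 is blue in the 4 samples with LPS.

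LPS against NC asked what the stimulus alone did to the pathway. In the fatty acid branch 4 of 9 genes were lower, Scd2, Fads1, Elovl5 and Fasn, and 0 were higher. In the sterol branch 6 of 24 were lower, Dhcr7, Ebp, Mvk, Lss, Mvd and Nsdhl, and 1 was higher, Idi1. A gene was called when its Benjamini-Hochberg adjusted p over all 12189 tested genes was at most 0.05 in limma on log2(TPM + 1), and a DEG also had a fold of at least 2. Over all tested genes 9.84% were called higher and 19.8% lower, and 12.2% were DEGs. The sterol count of lower genes is near the 19.8%, so it is not a result about that branch as a whole. The DEGs were 3 of 33 members, Dhcr7, Scd2 and Fads1, which is near the 12.2%. The median log2 change was -0.51 over the fatty acid genes and -0.04 over the sterol genes, beside -0.17 over all tested genes. Without NC replicate 1 these medians were -0.06 over the fatty acid genes and 0.10 over the sterol genes, and with samples centred on the median gene they were -0.34 and 0.13, so the sign of the sterol median changed with these settings.

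Dhcr7, which encodes the reductase of the last step from 7-dehydrocholesterol to cholesterol and lies at chr7:143823145-143848410 (plus strand, GENCODE M21 on GRCm38), changed most. Its level was 32.2 and 18.9 TPM in NC, 4.34 and 4.54 TPM in LPS, 18.4 and 20.2 TPM in C498, and 7.08 and 8.01 TPM in C498+LPS. The samples with LPS all lay below the samples without it, and the LPS samples lay below the C498+LPS samples. Dhcr7 fell by 2.24 ± 0.239 (SE) on the log2 scale in LPS against NC (limma, adjusted p = 0.000745), and the mean level was 5.75-fold lower. It was also lower by LPS on top of C498, where it fell by 1.25 ± 0.239 (adjusted p = 0.0156), a 2.55-fold lower mean. The difference between these responses, 0.99 ± 0.338, did not pass the test (adjusted p = 0.350).

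The other sterol genes that fell with LPS moved less. Ebp, the isomerase that acts shortly before Dhcr7, had 55.1 and 48.7 TPM in NC and 32.7 and 31.9 TPM in LPS, and it fell by 0.67 ± 0.112 (adjusted p = 0.00497). Mvk and Mvd, kinase and decarboxylase of the mevalonate pathway, fell by 0.60 ± 0.145 (adjusted p = 0.0194) and by 0.50 ± 0.149 (adjusted p = 0.0417). Lss, the cyclase that makes lanosterol, fell by 0.54 (adjusted p = 0.0471), and Nsdhl, which removes a methyl group from the sterol ring, fell by 0.49 (adjusted p = 0.0341). Idi1, the isomerase that makes dimethylallyl diphosphate, went the other way, from 22.3 and 16.2 TPM in NC to 30.1 and 28.8 TPM in LPS, a rise of 0.61 ± 0.159 (adjusted p = 0.0266). For each of these genes the 2 LPS samples did not overlap the 2 NC samples, but this adds no support to the calls. With 2 samples a group it is common: of the 24 sterol genes, called or not, 8 were higher and 11 lower without overlap, and 5 overlapped. The share over all tested genes was not counted.

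The split of the sterol branch in this comparison depended on how the samples were scaled. Centring each sample on its median gene added 0.17 to every log2 change of this comparison and took 0.12 from those of C498 against NC, and with it 8 sterol genes were higher and 2 lower in LPS against NC, beside 1 and 6 without it. Over all genes 14.6% were then called higher and 12% lower. Dhcr7 and Ebp stayed lower and Idi1 stayed higher, while Hmgcs1, Fdft1, Cyp51, Hsd17b7, Sc5d, Insig1 and Srebf2 were called higher only with centring in these 2 fits. The split also turned on NC replicate 1, since without it 7 sterol genes were higher and 4 lower. The fatty acid branch had 3 genes lower and 0 higher with centring, and Fasn was the one lost. Without LPS replicate 1 or LPS replicate 2, 2 sterol genes passed (Dhcr7 and Ebp), without either C498 sample 3 passed (with Mvk), and without LPS replicate 1 2 fatty acid genes passed (Scd2 and Fads1).

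**Figure D2:**
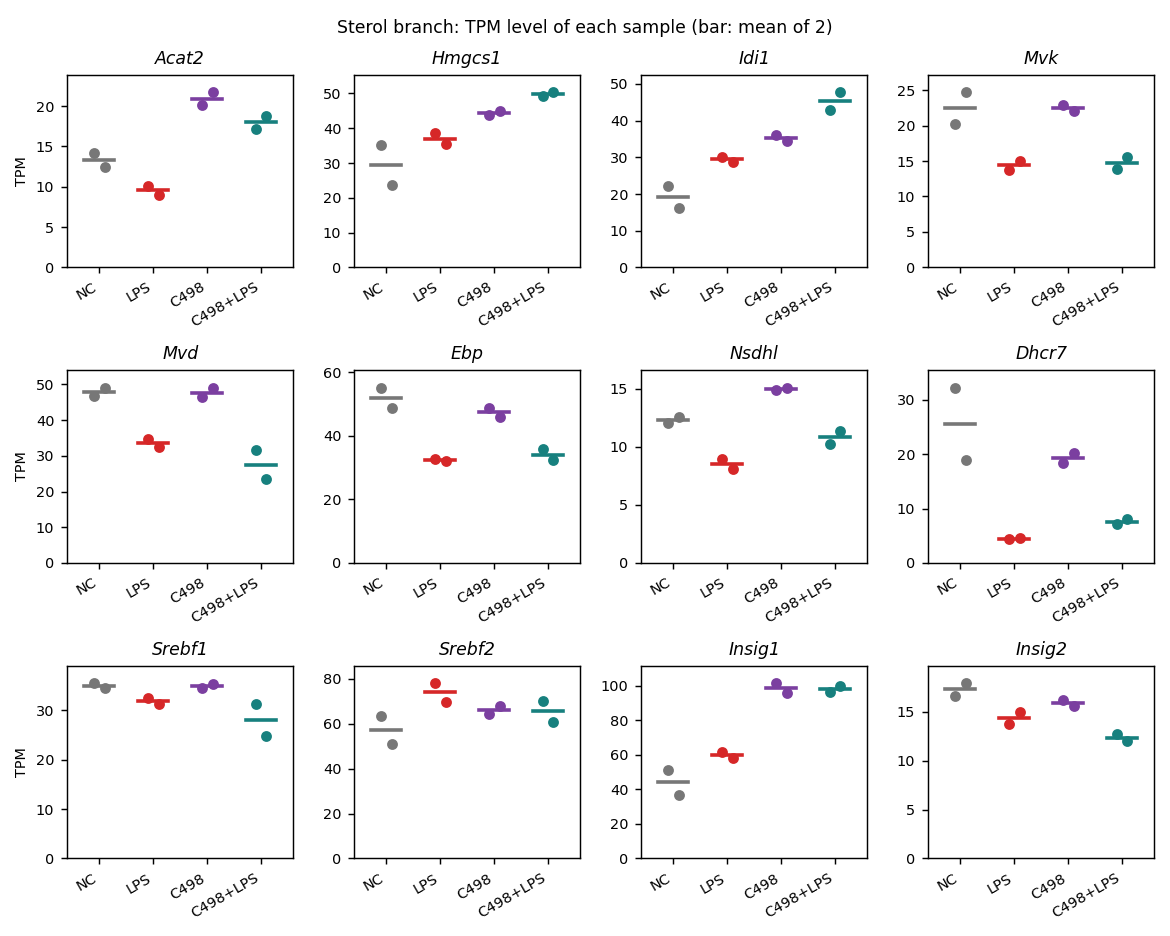
TPM level (y axis, from 0) of 12 sterol branch genes in each sample (points) with the mean of 2 (bar) by group. Dhcr7, Ebp, Mvk and Mvd are lower in the groups with LPS than in the groups without it, and Insig1, Idi1 and Acat2 are higher with C498 than in the matching group without it.

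In the fatty acid branch, Scd2, a stearoyl-CoA desaturase at chr19:44293674-44306864 (plus), had 33.5 and 23.9 TPM in NC, 10.6 and 11.6 TPM in LPS, 51.1 and 50.4 TPM in C498, and 31.8 and 34.6 TPM in C498+LPS. The LPS samples were the lowest of all 8 and the C498 samples the highest. Scd2 fell by 1.28 ± 0.166 in LPS against NC (limma, adjusted p = 0.00170), a 2.59-fold lower mean. Fads1, the delta-5 desaturase of polyunsaturated fatty acids at chr19:10182888-10196877 (plus), had 21.2 and 18.7 TPM in NC, 9.39 and 9.32 TPM in LPS, 25.2 and 24.3 TPM in C498, and 16.2 and 15.9 TPM in C498+LPS. Fads1 fell by 1.01 ± 0.124 (adjusted p = 0.00136), a 2.13-fold lower mean. Elovl5, an elongase of polyunsaturated fatty acids, fell by 0.76 ± 0.171 (adjusted p = 0.0154). Fasn, the fatty acid synthase, fell by 0.70 ± 0.136 (adjusted p = 0.00883). Fads2, the delta-6 desaturase whose gene lies beside Fads1, did not pass in this comparison, with a log2 change of 0.05 and a 95% interval of -0.52 to 0.62, and neither did Scd1 (0.13, interval -0.39 to 0.65). The genes of the first steps, Acly (ATP citrate lyase) and Acaca (acetyl-CoA carboxylase), did not pass either, with log2 changes of -0.06 and -0.51.

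C498 against NC and C498+LPS against LPS asked what the compound did without and with the stimulus. They share no samples, but they share the estimate of the spread. Without LPS 5 of 9 fatty acid genes were higher and 0 lower, and with LPS 6 of 9 were higher and 0 lower. Fasn, Scd1, Scd2, Fads2 and Elovl6 passed in both, and Fads1 passed with LPS. How many of all tested genes passed in both was not counted. Over all tested genes 9.29% were called higher, 6.19% lower and 7% were DEGs in C498 against NC, and 9.08% were higher, 7.7% lower and 7.57% DEGs in C498+LPS against LPS. The median log2 change of the 9 genes was 0.82 without LPS and 1.05 with LPS, beside 0.01 in each over all tested genes. The second of these medians is the value of Elovl6 itself, and among genes with a mean of at least 5 TPM the medians were 0.51 and 0.72. Scaling left these counts as they were, with 5 and 6 genes higher when samples were centred on the median gene. Without either C498 sample 3 genes passed in C498 against NC (Fasn, Scd1 and Fads2), and without either LPS sample or C498+LPS replicate 2 3 passed in C498+LPS against LPS (Fasn, Scd2 and Fads2).

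Fasn, at chr11:120805846-120824547 (minus), had 17.2 and 16.4 TPM in NC, 9.18 and 10.8 TPM in LPS, 37.9 and 42.1 TPM in C498, and 43.5 and 50.1 TPM in C498+LPS. Every sample with C498 lay above every sample without it, and the groups followed the order LPS, NC, C498 and C498+LPS with no overlap. Fasn rose by 1.20 ± 0.136 without LPS (limma, adjusted p = 0.00222), 2.38-fold in mean level, and by 2.12 ± 0.136 with LPS (adjusted p = 0.000430), 4.68-fold. On top of C498, LPS changed Fasn by 0.22 ± 0.136 (adjusted p = 0.314), where it had lowered it without the compound. The difference between the LPS responses was 0.92 ± 0.193 with an adjusted p of 0.124, so it was not called.

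The delta-9 desaturases make monounsaturated from saturated fatty acids. Scd1, at chr19:44394455-44407879 (minus), had 2.16 and 1.45 TPM in NC, 2.26 and 1.84 TPM in LPS, 8.59 and 8.05 TPM in C498, and 5.75 and 7.56 TPM in C498+LPS. It rose by 1.74 ± 0.222 without LPS (adjusted p = 0.00366) and by 1.32 ± 0.222 with LPS (adjusted p = 0.00876). Scd2 rose by 0.82 ± 0.166 without LPS (adjusted p = 0.0198) and by 1.50 ± 0.166 with LPS (adjusted p = 0.00190), so that its C498+LPS samples lay at 31.8 and 34.6 TPM, against 33.5 and 23.9 TPM in NC. Scd2 was the more abundant of the pair in every sample.

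Of the desaturase and elongase genes of longer chains, Fads2 and Elovl6 passed in both comparisons, Fads1 in 1 and Elovl5 in 0. Fads2, at chr19:10062765-10101746 (minus), had 2.35 and 2.09 TPM in NC, 2.35 and 2.32 TPM in LPS, 9.70 and 12.9 TPM in C498, and 7.68 and 12.0 TPM in C498+LPS. The samples with C498 did not overlap those without it, and Fads2 rose by 1.92 ± 0.242 without LPS (limma, adjusted p = 0.00351) and by 1.67 ± 0.242 with LPS (adjusted p = 0.00487). Fads1 had its largest levels in C498 too, and of these comparisons it passed in C498+LPS against LPS, with 0.72 ± 0.124 (adjusted p = 0.00940), beside 0.30 ± 0.124 in C498 against NC (adjusted p = 0.147). Elovl6, the elongase that takes palmitate to stearate, at chr3:129532355-129638495 (plus), had 1.27 and 0.74 TPM in NC, 1.24 and 0.48 TPM in LPS, 3.94 and 4.30 TPM in C498, and 2.65 and 2.88 TPM in C498+LPS. It rose by 1.36 ± 0.276 (adjusted p = 0.0201) and by 1.05 ± 0.276 (adjusted p = 0.0416). Elovl6 averaged 1.00 TPM in NC and 0.860 TPM in LPS and reached the filter on a mean of 1 TPM through the C498 groups where it is high, so its calls and its place in the counts give no support of their own, and without it 4 and 5 fatty acid genes were higher with C498. With LPS its call was lost under 9 of 15 alternatives, a pseudocount of 0.1 TPM among them, and without LPS under 5. Acly, Acaca and Elovl5 did not pass in either comparison, with log2 changes between 0.05 and 0.51.

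**Figure D3:**
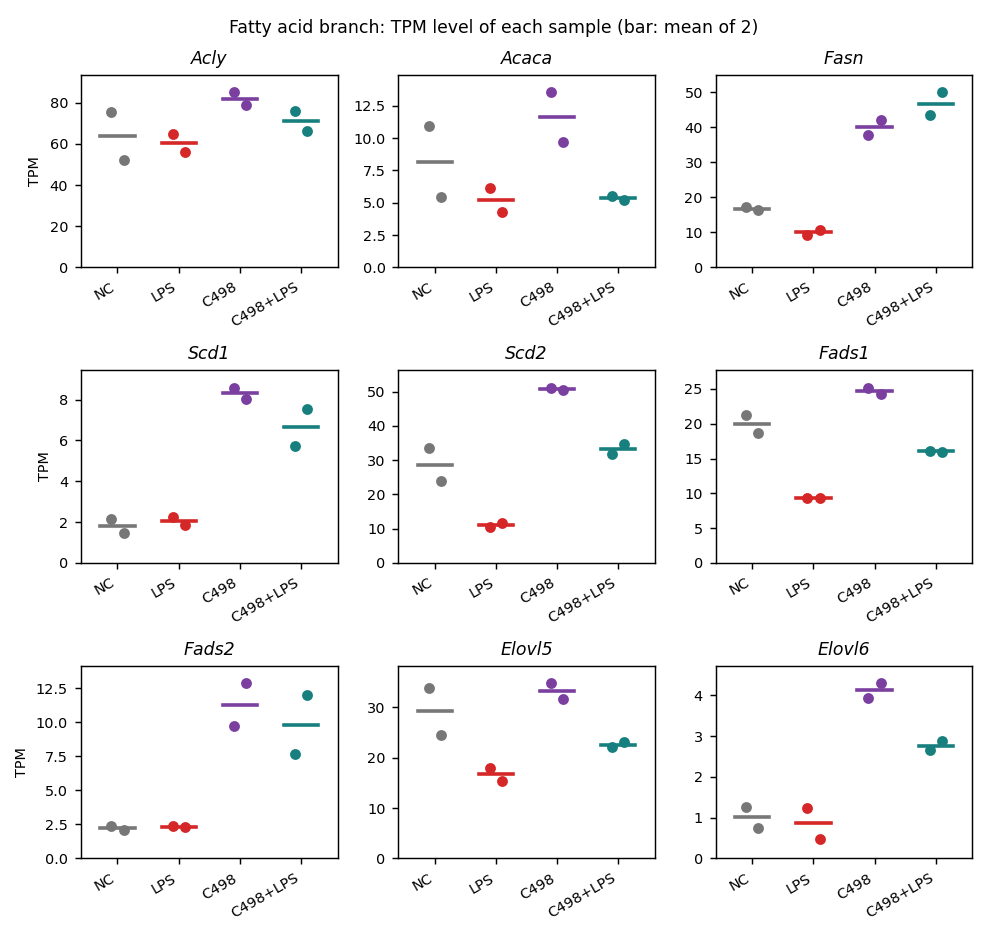
TPM level (y axis, from 0) of the 9 fatty acid branch genes in each sample (points) with the mean of 2 (bar) by group. Fasn, Scd1, Fads2 and Elovl6 are higher in all 4 samples with C498 than in the 4 without it, while Scd2, Fads1 and Elovl5 are lowest in LPS.

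In the sterol branch Acat2, Idi1 and Insig1 were higher both without and with LPS, 3 of 24 in each comparison, and 0 were lower. That share is near the 9.29% and 9.08% of all tested genes called higher, so it is not a result about the branch as a whole. The median log2 change of the 24 genes was 0.24 without LPS and 0.10 with LPS, beside 0.01 in each over all tested genes. With samples centred on the median gene these sterol medians were 0.12 and 0.02, beside -0.11 and -0.07 over all tested genes. Insig1, which encodes the protein that retains SCAP and is itself a known SREBP target, had 51.2 and 36.9 TPM in NC, 61.7 and 58.3 TPM in LPS, 102 and 95.7 TPM in C498, and 96.2 and 99.6 TPM in C498+LPS. The 4 samples with C498 lay above the 4 without it and overlapped among themselves. Insig1 rose by 1.16 ± 0.152 without LPS (limma, adjusted p = 0.00416), 2.24-fold in mean level, and by 0.70 ± 0.152 with LPS (adjusted p = 0.0216). It lies at chr5:28071363-28078662 (plus).

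Idi1 rose by 0.86 ± 0.159 without LPS (adjusted p = 0.0144) and by 0.60 ± 0.159 with LPS (adjusted p = 0.0412), and its level was highest in C498+LPS, at 42.9 and 47.8 TPM. Acat2, the thiolase that joins acetyl-CoA units ahead of Hmgcs1, rose by 0.62 ± 0.140 (adjusted p = 0.0278) and by 0.85 ± 0.140 (adjusted p = 0.00826). Hmgcs1, the synthase whose promoter holds the TCACNCCAC match, had 35.1 and 23.6 TPM in NC, 38.5 and 35.5 TPM in LPS, 43.8 and 45.1 TPM in C498, and 49.3 and 50.4 TPM in C498+LPS. Its NC samples were the farthest apart, and it did not pass without LPS (0.61 ± 0.176, adjusted p = 0.0588) or with LPS (0.42 ± 0.176, adjusted p = 0.154). This turned on the setting. Hmgcs1 was called higher without LPS with centring (limma, adjusted p = 0.0273), quantile normalization (0.0185) and a replicate block (0.0416). With LPS it was called higher with quantile normalization (0.0410) and with only the groups compared in the fit (0.0494). Without NC replicate 1, 9 sterol genes were higher in C498 against NC, beside 3 with all samples. Without C498 replicate 1, 0 passed, and without C498 replicate 2 only Insig1 passed. In C498+LPS against LPS, the calls of Insig1 and Idi1 were lost under 7 and 8 of 16 alternatives. The call of Acat2 there was lost under 2, those without LPS replicate 2 and without C498+LPS replicate 2, where Insig1 and Idi1 were lost too.

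In limma on log2(TPM + 1) with all samples and no further scaling, none of the genes from squalene to cholesterol was called with C498. Fdft1, Sqle, Lss, Cyp51, Tm7sf2, Msmo1, Nsdhl, Hsd17b7, Ebp, Sc5d and Dhcr7 had log2 changes from -0.34 for Dhcr7 to 0.68 for Hsd17b7 without LPS and from -0.36 for Sc5d to 0.65 for Dhcr7 with LPS. With samples centred on the median gene, Sc5d was called lower with LPS (-0.43, limma, adjusted p = 0.0366), and Hmgcs1 and Scap were called higher without LPS. With quantile normalization Sqle was called higher without LPS (0.39, adjusted p = 0.0440). Without NC replicate 1, Sqle, Cyp51 and Hsd17b7 were called higher in C498 against NC, and without NC replicate 2 Dhcr7 was called lower (-0.71, adjusted p = 0.0412). In C498+LPS against LPS, Dhcr7 and Sqle were called higher without either NC sample, which changes only the shared estimate of the spread. The genes from mevalonate to farnesyl diphosphate other than Idi1, that is Mvk, Pmvk, Mvd and Fdps, lay between -0.29 and 0.28 in both comparisons.

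The regulators themselves, other than Insig1, passed in none of the 4 pairwise comparisons on log2(TPM + 1) without further scaling, but for Scap and Srebf2 this turned on the setting. Srebf2 had 63.4 and 51.1 TPM in NC, 78.1 and 69.9 TPM in LPS, 64.5 and 68.0 TPM in C498, and 70.3 and 60.8 TPM in C498+LPS, and its largest change was 0.37 ± 0.137 in LPS against NC (limma, adjusted p = 0.0825). Srebf2 was called higher there with centring (adjusted p = 0.00779) and with quantile normalization (0.0353). Srebf1 had 35.5 and 34.4 TPM in NC, 32.5 and 31.3 TPM in LPS, 34.5 and 35.3 TPM in C498, and 31.1 and 24.8 TPM in C498+LPS. Its change with C498 was -0.0017 without LPS (95% interval -0.31 to 0.30) and -0.19 with LPS (interval -0.49 to 0.11), while Fasn and Scd1, known targets of its product, were called higher in both. Scap had 21.3 and 15.6 TPM in NC, 21.2 and 18.4 TPM in LPS, 27.7 and 28.4 TPM in C498, and 24.1 and 22.1 TPM in C498+LPS. The C498 samples of Scap were the highest of the 8, and its change against NC was 0.59 ± 0.166 (limma, adjusted p = 0.0537). Scap was called higher there with centring (adjusted p = 0.0240), with quantile normalization (0.0143) and with a mean of at least 5 TPM (0.0473). Insig2, the second retention protein, had 16.7 and 18.0 TPM in NC, 13.8 and 15.0 TPM in LPS, 16.3 and 15.6 TPM in C498, and 12.7 and 12.0 TPM in C498+LPS. Stard4, a carrier of cholesterol inside the cell, had NC samples at 11.7 and 4.17 TPM and, with all samples, passed in no comparison. Without NC replicate 1, Stard4 was called higher in LPS than in NC, by 0.735 on the log2 scale (limma, adjusted p = 0.0235), and in C498 than in NC, by 1.06 (adjusted p = 0.0117). Without NC replicate 2, the log2 change of Stard4 from NC to LPS was -0.56 (limma, adjusted p = 0.0465), a call in the other direction. TPM is a level of RNA, and the cleavage of SREBP precursors was not measured.

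With LPS on top of C498 (C498+LPS against C498), 4 of 24 sterol genes were lower, Dhcr7, Mvd, Ebp and Mvk. In the fatty acid branch 1 of 9 was lower, Fads1, and 0 of either branch were higher. Over all tested genes 4.51% were called higher, 11.7% lower and 5.64% were DEGs. The counts of lower genes are near that share, so they are not a result about either branch as a whole. All 5 genes had also been lower in LPS against NC, which shares no samples with this comparison but shares the estimate of the spread. How many of all tested genes were lower in both was not counted. Mvd fell by 0.79 ± 0.149 (limma, adjusted p = 0.0147), Ebp by 0.47 ± 0.112 (adjusted p = 0.0328), Mvk by 0.58 ± 0.145 (adjusted p = 0.0369) and Fads1 by 0.59 ± 0.124 (adjusted p = 0.0207). Scd2 missed the threshold with -0.60 ± 0.166 (adjusted p = 0.0502). With samples centred on the median gene, Dhcr7 was lower and Idi1 higher in the sterol branch and 0 fatty acid genes passed, where 7.94% of all genes were higher and 5.32% lower. No sterol gene passed without C498 replicate 1, C498 replicate 2 or C498+LPS replicate 2, Mvd alone passed without C498+LPS replicate 1, and no fatty acid gene passed without any one of the 4 samples compared.

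The interaction of C498 and LPS tested whether the compound changed the size of the LPS response. In limma 0 of the 33 members passed, and over all tested genes 0.0738% were called higher and 0.418% lower. At an unadjusted p under 0.05 there were 5 of 33, Fasn, Dhcr7, Scd2, Fads1 and Sc5d, beside 11.1% of all tested genes. The largest estimates were 0.99 for Dhcr7, 0.92 for Fasn and 0.68 for Scd2. For Dhcr7, the 95% interval ran from 0.20 to 1.79.

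**Figure D4:**
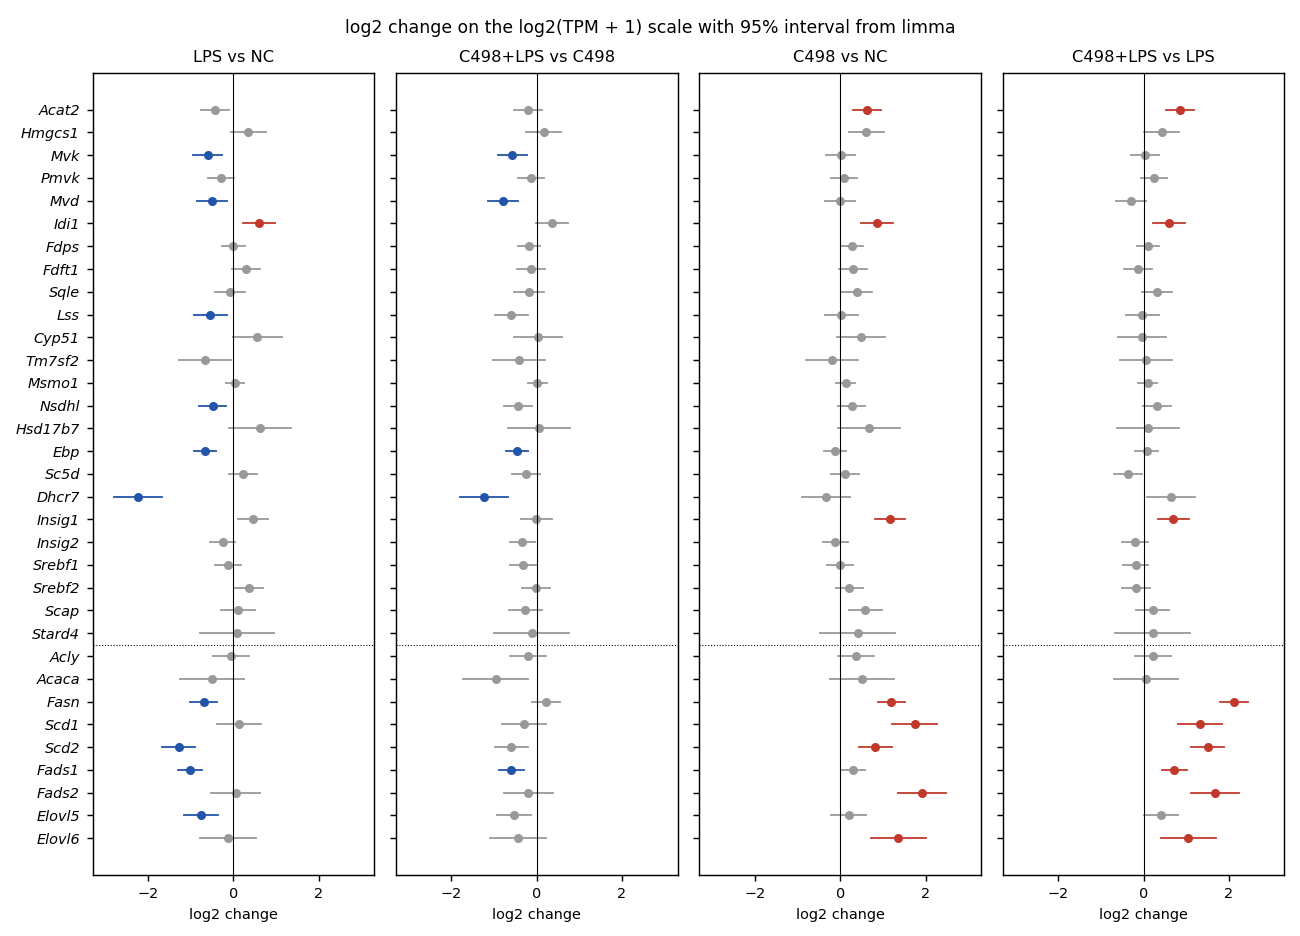
log2 change on the log2(TPM + 1) scale (x axis) with its 95% interval for each member (rows, sterol genes above the dotted line) in the 4 pairwise comparisons. Red marks genes called higher, blue genes called lower and gray the rest. The right 2 panels, for C498, hold only red calls, and the left 2 panels, for LPS, hold blue calls and Idi1 in red.

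Fibroblast markers were higher with C498, as the called fatty acid genes were, and the summed level of the neutrophil markers was lower. The 5 fibroblast markers (Col1a1, Col1a2, Col3a1, Dcn and Pdgfra) summed to 150 to 192 TPM in NC, 176 to 200 TPM in LPS, 633 to 750 TPM in C498 and 618 to 911 TPM in C498+LPS. All 5 were called higher in C498 against NC, with a median log2 change of 2.00, and 4 of 5 in C498+LPS against LPS, with 2.00 as well. In LPS against NC 0 of the 5 were called. The 4 mesothelial markers summed to 1.83 TPM in both NC samples, 1.62 to 1.76 TPM in LPS, 5.53 to 7.94 TPM in C498 and 5.96 to 10.7 TPM in C498+LPS. The 8 macrophage markers summed to 19909 to 20436 TPM in NC, 16589 to 17224 TPM in LPS, 15302 to 15467 TPM in C498 and 10637 to 12423 TPM in C498+LPS. The 6 neutrophil markers summed to 208 to 228, 187 to 209, 117 to 126 and 115 to 140 TPM in the same order. Of 4 tested neutrophil markers, 2 were called lower in each C498 comparison. Of the tested markers, Retnlg and Camp averaged below 1 TPM in both groups with C498. They reached the filter of 1 TPM through the groups without it, so a call of either gives no support of its own. S100a9 and Ly6g, not tested, were at 0 in every NC and LPS sample and above 0 in some samples with C498. The 4 adipocyte markers (Adipoq, Plin1, Cidec and Cfd) are listed at 0 in every sample, which in a table without counts can be a failed estimate. The summed markers of eosinophils, T cells, B cells and mast cells were at most 20.5 TPM in any sample. The part of these cells in the changes of Fasn, Scd1, Scd2, Fads2, Elovl6 and the other genes was not tested.

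**Figure D5:**
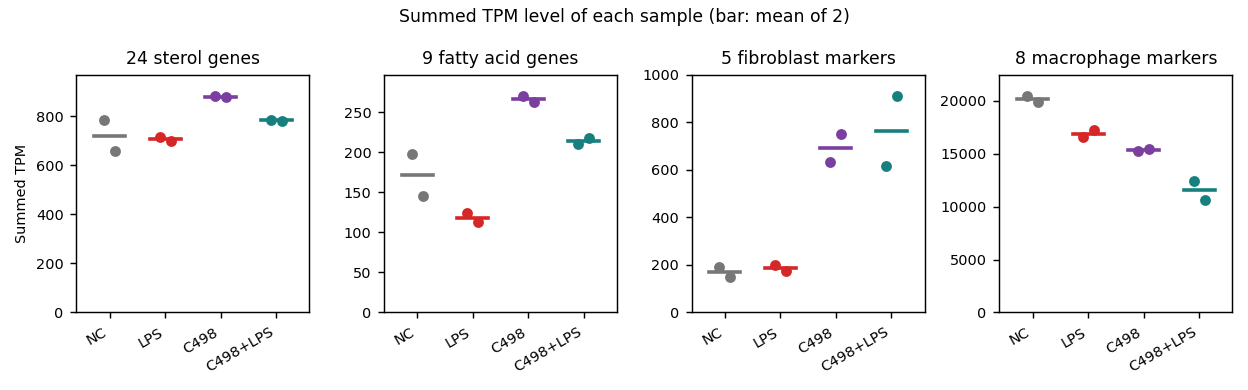
Summed TPM (y axis, from 0) in each sample (points) with the mean of 2 (bar), for the sterol genes, the fatty acid genes, the fibroblast markers and the macrophage markers. The fatty acid genes and the fibroblast markers are both higher in the 4 samples with C498 than in the 4 without it. The fatty acid genes are lower in LPS than in NC, where the fibroblast markers overlap.

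Neighbouring genes of lipid metabolism were examined too. Of 26 tested genes of other fatty acid enzymes and SREBP machinery, 4 were higher and 3 lower in LPS against NC, 3 and 3 in C498 against NC, 3 and 4 in C498+LPS against LPS, and 0 and 6 in C498+LPS against C498. Over all tested genes the shares higher and lower were 9.84% and 19.8%, 9.29% and 6.19%, 9.08% and 7.7%, and 4.51% and 11.7% in the same order. With so few genes these counts are not a result about the list as a whole. Fads3, the third gene of the Fads cluster, had 1.46 and 1.60 TPM in NC, 2.14 and 2.51 TPM in LPS, 8.24 and 7.27 TPM in C498, and 9.71 and 12.7 TPM in C498+LPS. It rose by 1.79 (limma, adjusted p = 0.00198) and by 1.86 (adjusted p = 0.00167) with C498, beside Fads2. Acsl3, a ligase that activates fatty acids, also rose with C498, by 1.04 (adjusted p = 0.00639) and 1.39 (adjusted p = 0.00190). Acsl1, another such ligase, had 104 and 73.2 TPM in NC and 298 and 258 TPM in LPS, a rise of 1.66 (adjusted p = 0.00117), and was at 109 and 82.5 TPM in C498+LPS, lower than LPS by -1.54 (adjusted p = 0.00305). Lpin1, a phosphatidate phosphatase, fell by 1.45 in LPS against NC (adjusted p = 0.00773) and by 1.43 in C498+LPS against C498 (adjusted p = 0.0155).

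The side branches from farnesyl diphosphate to prenylated proteins, ubiquinone and dolichol had 0 higher and 3 lower of 15 genes in LPS against NC, 0 and 2 in C498 against NC, 1 and 2 in C498+LPS against LPS, and 0 and 0 in C498+LPS against C498 (limma). In the last of these, 0 were higher and 2 lower at an unadjusted p under 0.05, beside 7.65% and 24.2% of all tested genes. They held 0 DEGs, beside 12.2%, 7%, 7.57% and 5.64% of all tested genes in the same order, and 0 of 15 is near such shares. Of 22 genes of sterol handling and LXR response, 4 were higher and 8 lower in LPS against NC, 1 and 1 in C498 against NC, 1 and 4 in C498+LPS against LPS, and 1 and 7 in C498+LPS against C498. The shares of all tested genes called higher and lower are those given above for the neighbouring genes. Ch25h, the hydroxylase that makes 25-hydroxycholesterol, had 4.33 and 3.91 TPM in NC, 46.6 and 42.3 TPM in LPS, 4.06 and 6.09 TPM in C498, and 17.1 and 19.8 TPM in C498+LPS. It rose by 3.15 with LPS (limma, adjusted p = 5.9e-05), and it was lower by -1.23 in C498+LPS than in LPS (adjusted p = 0.00675). Abcg1, a sterol exporter, fell by 1.45 with LPS alone (adjusted p = 0.00288), by 2.16 with LPS on top of C498 (adjusted p = 0.00121) and by 1.18 in C498+LPS against LPS (adjusted p = 0.0116). Nceh1, a cholesteryl ester hydrolase, fell by 1.87 in LPS against NC (adjusted p = 0.00529), and Soat1, which esterifies cholesterol, fell by 1.12 (adjusted p = 0.00334).

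Some members share sequence or exons with other genes, and the sources used here do not say how such reads were assigned or whether counting used the strand. By 31-base words of their GENCODE M21 transcripts, Acat2 shares 43.7% with Acat3 and other genes, Acaca 33.5%, mostly with Gm5182, Fdft1 31.9%, mostly with Ctsb on the opposite strand, Fdps 27.9% and Idi1 27.1%. How far this sharing affects the levels of these 5 was not estimated. Scd1 shares 8.18% and Scd2 6.81%, mostly with Scd3, and Fads2 0.729%, while Fasn, Fads1 and Elovl5 share 0 words with any other gene.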

How the data were processed

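RNA of 8 peritoneal macrophage samples, 2 per group by the labels, was sequenced as paired TruSeq libraries on an Illumina NovaSeq. The steps the authors give are read filtering (fastp), alignment (HISAT2), transcript assembly (StringTie) and quantification (RSEM). The genome build, annotation and versions are not given in the sources used here. The deposited unit is TPM, 1 value for each gene in each sample; the authors also gave gene lengths and group means, which were not used. TPM has the same total in all samples, so depth is unknown.

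On the scale log2(TPM + 1), 12189 genes whose mean was at least 1 TPM were fitted in limma 3.58.1 (R 4.3.3) by a model of 4 group means that used all 8 samples, with a variance trend. Adjusted p-values (Benjamini-Hochberg) span all tested genes of a comparison, and the threshold was 0.05. The fit was tested on simulated data. Intervals are 95% from the moderated fit, and fold changes on this scale understate those of low genes. The members and the lists of other genes were chosen with earlier results of these data known. Values of every sample are given for members that were DEGs and for Srebf1, Srebf2, Scap, Insig1 and Insig2, with some others added for context after their values were seen. From other lists up to 4 DEGs with the largest change are named, and Ch25h. Alternatives were another pseudocount (0.1 TPM), other filters and scalings, fewer samples in the fit, no trend, a replicate block and leaving out each sample. Positions and shared words come from GENCODE M21 and promoters from RefSeq. Python 3.11.15, pandas 2.3.3 and matplotlib 3.10.9 were used for the rest.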

Additional observations from a re-analysis of the deposited data

Results flagged for a closer look

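For 3 of 33 members, responses to the same treatment pointed in opposite directions without overlap of the samples, a pattern that 6.51% of all tested genes showed, while the interaction of C498 and LPS, which tests the difference itself, was not called in limma. The LPS response of Fasn was downward in both LPS samples against NC and upward in both C498+LPS samples against C498, with an interaction of 0.92 (adjusted p = 0.124). Sc5d, the desaturase ahead of Dhcr7, was higher with LPS and lower with LPS on top of C498, with an interaction of -0.47 (adjusted p = 0.448). Fdft1, the squalene synthase, was higher with LPS alone and lower with LPS on top of C498, and likewise higher with C498 alone and lower with C498 in the presence of LPS, with an interaction of -0.43 (adjusted p = 0.478). The fall of Fdft1 with LPS on top of C498 is without overlap by a narrow margin, 20.23 TPM in C498 replicate 1 against 20.21 TPM in C498+LPS replicate 2. With samples centred on the median gene, the change of Fdft1 by LPS on top of C498 turned from -0.14 to 0.08 on the log2 scale, and that of Sc5d went from -0.25 to -0.04. Of the exon bases of Fdft1, 18.3% lie in exons of Ctsb on the opposite strand.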

How the results depend on the processing

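Of 33 calls on single members, 10 were kept under every alternative: Dhcr7, Ebp, Scd2 and Fads1 in LPS against NC, Fasn, Scd1 and Fads2 in C498 against NC, and Fasn, Scd2 and Fads2 in C498+LPS against LPS. Of 524 values under an alternative, 391 kept their call, 133 lost it and 0 changed direction. The following counts of passing members changed by more than 1.5 times. In LPS against NC, 7 sterol genes became 4 with no filter on low values and 2 with only the groups compared in the fit, and 4 fatty acid genes became 2 with only those groups. In C498 against NC, 3 sterol genes became 5 with centring, 6 with quantile normalization and 0 with only the groups compared, and 5 fatty acid genes became 3 with a mean of at least 5 TPM and 3 with only the groups compared. In C498+LPS against LPS, 3 sterol genes became 1 with no filter. In C498+LPS against C498, 4 sterol genes became 2 with centring, and 1 fatty acid gene became 2 with a mean of at least 5 TPM, 0 with centring, 2 with quantile normalization and 4 with only the groups compared. The mean of at least 5 TPM leaves out Scd1 and Elovl6. The cause of the other changes was not tested.

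Leaving out each sample in turn, the sterol counts ran from 2 to 11 in LPS against NC, 0 to 9 in C498 against NC, 0 to 6 in C498+LPS against LPS and 0 to 7 in C498+LPS against C498, and the fatty acid counts from 2 to 5, 3 to 6, 3 to 7 and 0 to 4. A lone sample left in a group is assumed to vary like the other groups. The labels give all groups the same replicate numbers but do not say that they pair samples, and deviations from the group means correlated between same-numbered samples with r of 0.0397 to 0.168. With a replicate block, 5 sterol genes passed in C498 against NC and 4 fatty acid genes in C498+LPS against C498, beside 3 and 1. Scap (adjusted p = 0.0300, limma) and Hmgcs1 (0.0416) in C498 against NC, and Srebf2 (0.0440) and Insig1 (0.0386) in LPS against NC, were then called higher. Depth is unknown, so counting error cannot be given.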
